A study of Homo sapiens with 6 samples.

Results

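Genes of 10 cell adhesion molecules with immunoglobulin domains were followed in 12Z cells after knockdown of SMARCA4. The 12Z line is an immortalised human line of epithelial cells from endometriosis, and SMARCA4 codes for BRG1, a catalytic subunit of SWI/SNF chromatin remodellers. The genes were taken by name: the nectins NECTIN1, NECTIN2 and NECTIN3, the nectin-like gene CADM1, the neural adhesion genes L1CAM and NCAM1, ALCAM and MCAM, and the leukocyte ligands ICAM1 and VCAM1. They are 10 of the 58336 genes in the count tables, and all 10 were among the 15830 genes that passed the filter on low counts. Each group held 3 RNA-seq libraries. The siBRG1 libraries came from 12Z cells transfected with 50 nM siRNA against SMARCA4. The control libraries came from 12Z cells transfected with a non-targeting siRNA, also at 50 nM. Both groups, per the labels' protocols, were grown in 10% serum, with a medium change at 24 h. Both were changed to 0.5% serum at 48 h and extracted at 72 h. The labels mark the 3 control libraries as samples of an earlier deposit that were analysed again, and mark none of the siBRG1 libraries so. Earlier deposit and group therefore cannot be told apart for any gene below. No label states that replicates were separate cultures, and the p-values measure the spread among these libraries, which may be technical.

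Adhesion molecules of the immunoglobulin superfamily are single-pass membrane proteins that bind each other, or other ligands, between neighbouring cells. Nectins start adherens junctions by pairing in trans, and their tails bind afadin (AFDN), which ties them to actin. ICAM1 and VCAM1 hold leukocytes through integrins, and NF-kappaB, downstream of inflammatory cytokines, is a well-known activator of both genes. L1CAM and NCAM1 were first described in the nervous system, and L1CAM is also studied as a marker in endometrial carcinoma.

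After siBRG1, 8 of the 10 genes passed the test, 5 higher and 3 lower, by edgeR's quasi-likelihood test at an adjusted p under 0.05. Of all genes tested 72.6% passed, 36.1% as higher and 36.5% as lower, so the count of 8 lies near the background. VCAM1 and ICAM1, 2 of the 10, passed with at least a 2-fold rise, against 21.6% of all genes tested, 10.4% higher and 11.1% lower. When protein-coding genes were fitted alone, 75.9% passed and 16.1% did so with at least a 2-fold change. The median log2 fold change (log2FC, siBRG1 over control) of the 10 was 0.26, and that of all genes tested was −0.01. For 8 of the 10 the CPM (counts scaled to the TMM-normalised library total) of the 2 groups did not overlap, which held for 74.3% of all genes tested. NECTIN1 and NECTIN3 were the genes whose groups overlapped.

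**Figure D1:**
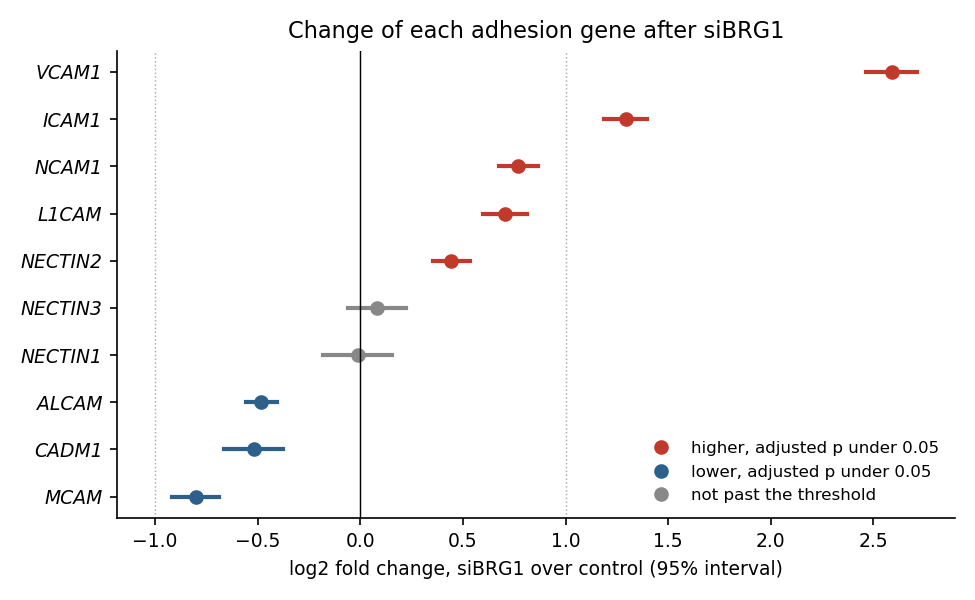
Log2FC of the 10 adhesion genes, siBRG1 over control, with its 95% interval (x axis) for each gene (y axis); dotted lines mark a 2-fold change. VCAM1 and ICAM1 lie beyond the upper line, and the intervals of NECTIN1 and NECTIN3 include 0.

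SMARCA4, the siRNA target, stood at 63.3 ± 14.4 CPM in siBRG1 and 258 ± 11.8 CPM in control (SD, n = 3 each), a log2FC of −2.03 (with SE 0.161, adjusted p = 0.000267). Counts assigned to genes ranged from 12391161 to 13369692 per siBRG1 library and from 40228678 to 49720320 per control library. Among the listed cell type markers, KRT8 and KRT18, keratins of simple epithelia, were abundant in both groups, at 1655 ± 46.3 and 1296 ± 93.0 CPM in siBRG1 and 1556 ± 12.8 and 1343 ± 22.9 CPM in control. EPCAM and CDH1, other epithelial markers, were low, at 1.61 ± 0.264 and 5.87 ± 1.35 CPM in siBRG1 and 0.251 ± 0.0890 and 3.05 ± 0.553 CPM in control. Of the 7 epithelial markers 4 were higher (KRT8, EPCAM, CDH1 and PAX8) and 2 lower (KRT19 and KRT7) in siBRG1, with a summed level of 3481 to 3738 CPM in siBRG1 and 3938 to 4023 CPM in control. Of 7 stromal fibroblast markers 5 were higher and 1 lower in siBRG1, with a summed level of 3268 to 3462 CPM in siBRG1 and 2390 to 2537 CPM in control. Beside these marker counts, 72.6% of all genes tested were called, 36.1% higher and 36.5% lower.

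VCAM1 (ENSG00000162692.10, chromosome 1, 100719742 to 100739045, plus strand, GRCh38), whose protein is the ligand of integrin alpha4beta1 on leukocytes, had the largest change of the 10. It stood at 195, 214 and 195 CPM in the siBRG1 libraries, against 36.2, 34.6 and 29.3 CPM in the control libraries. Each siBRG1 library lay far above every control library. The means were 201 ± 10.8 CPM in siBRG1 and 33.4 ± 3.60 CPM in control (SD, n = 3 each), a 6.01-fold rise (log2FC 2.59 with SE 0.0595, adjusted p = 3.06e-23). Of the 15830 genes tested it ranked at 629 by size of change. VCAM1 is also made by endothelial and stromal cells, so the markers of other cell types were set beside it. Of 9 endothelial markers 5 were tested, 2 higher and 2 lower, where 72.6% of all genes tested were called. The 9 summed to 26.3 to 32.7 CPM in siBRG1 and 24.1 to 28.3 CPM in control. CDH5 and EGFL7 were the 2 higher (log2FC 1.96 and 0.77), and VWF and TIE1 the 2 lower (−0.69 and −2.86). TIE1 had 3 counts in siBRG1 and 75 in control, summed over libraries, too few to size the change. KDR did not pass, with means of 14.6 CPM in siBRG1 and 15.9 CPM in control. Among those not tested, EMCN and ERG had 0 counts in all libraries. PECAM1 had 2 counts in siBRG1 and 2 in control, summed over libraries. The 9 immune markers summed to 9.91 to 10.7 CPM in siBRG1 and 4.21 to 5.64 CPM in control, mostly CD14 at 9.39 ± 0.443 CPM in siBRG1 and 4.08 ± 0.561 CPM in control, while CD3E and TYROBP had 0 counts in all libraries. LUM, a stromal proteoglycan gene, stood at 389 ± 23.3 CPM in siBRG1 and 82.3 ± 8.75 CPM in control. The stromal markers did not move alike. DCN rose by a log2FC of 2.15 and COL1A1 by 0.38, THY1 fell (−0.17) and HAND2 did not pass (−0.08). The part of endothelial or stromal cells in the rise of VCAM1 was not tested. In bulk RNA a change in the number of cells of a type and a change in RNA per cell cannot be told apart, here or for any other gene.

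ICAM1 (ENSG00000090339.8, chromosome 19, 10270835 to 10286615, plus strand), whose protein binds the leukocyte integrins LFA-1 and Mac-1, also rose. It stood at 142, 154 and 144 CPM in the siBRG1 libraries, against 58.4, 64.9 and 56.5 CPM in the control libraries. The lowest siBRG1 library was above the highest control library by more than the range within either group. The means were 147 ± 6.37 CPM in siBRG1 and 59.9 ± 4.39 CPM in control (SD, n = 3 each), a 2.45-fold rise (log2FC 1.29 with SE 0.0513, adjusted p = 6.55e-19). Within each library the level per kilobase of VCAM1 was 0.839 ± 0.0116 times that of ICAM1 in siBRG1 and 0.341 ± 0.0333 times in control (SD, n = 3 each), so VCAM1 gained on ICAM1.

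Of the 10 genes 7 have a promoter window in RefSeq's table (GRCh38.p14), and the 250 bases before the annotated start were searched on both strands. The stretches of VCAM1 and ICAM1 are printed because these genes rose most, and those of ALCAM and MCAM for comparison, as genes that fell. Capitals mark GGNNTTTCC, a kappaB-like pattern, TATAAA, the TATA box, and GGGCGG, a GC box, on either strand. The patterns were chosen after the sequences and the changes were seen. The VCAM1 window is chr1:100719492-100719741, plus strand, and the ALCAM window is chr3:105366659-105366908, plus strand. The MCAM window is chr11:119317131-119317380, minus strand, upstream of a RefSeq start that lies 4391 bases inside the GENCODE 29 gene. Of ICAM1 only short stretches are given, chr19:10270924-10270952 and chr19:10271080-10271105, plus strand, because its window lies in the first exon of a longer transcript in GENCODE 29.
VCAM1: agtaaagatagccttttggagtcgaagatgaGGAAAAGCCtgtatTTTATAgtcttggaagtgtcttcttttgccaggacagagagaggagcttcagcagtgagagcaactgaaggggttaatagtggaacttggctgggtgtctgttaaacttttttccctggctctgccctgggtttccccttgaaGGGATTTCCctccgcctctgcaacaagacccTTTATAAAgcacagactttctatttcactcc
ICAM1 kappaB-like stretch: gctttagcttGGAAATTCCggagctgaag
ICAM1 TATA stretch: tggctagcgcTATAAAggatcacgcg
ALCAM: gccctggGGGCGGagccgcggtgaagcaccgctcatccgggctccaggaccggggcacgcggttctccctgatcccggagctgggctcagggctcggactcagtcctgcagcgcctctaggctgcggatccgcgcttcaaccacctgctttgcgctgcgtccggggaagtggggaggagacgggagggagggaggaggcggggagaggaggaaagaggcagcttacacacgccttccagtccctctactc
MCAM: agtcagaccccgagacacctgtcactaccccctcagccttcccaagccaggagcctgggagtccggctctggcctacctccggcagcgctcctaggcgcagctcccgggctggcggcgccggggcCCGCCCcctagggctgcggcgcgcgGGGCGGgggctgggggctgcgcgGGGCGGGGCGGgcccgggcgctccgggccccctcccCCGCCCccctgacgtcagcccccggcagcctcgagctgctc

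The VCAM1 window held 2 matches to GGNNTTTCC, the nearer one from 62 to 54 bases before the start, and ICAM1 held 1, from 186 to 178 bases before the start. The windows of ALCAM, MCAM, L1CAM, NECTIN2 and NECTIN3 held none. Some of these RefSeq starts lie inside the GENCODE 29 gene, by 10230 or 10160 bases in L1CAM, 1745 in NECTIN3 and 122 in NECTIN2. L1CAM and NECTIN2 rose in siBRG1 with no match in these windows. The pattern was held by 5.48% of all 35116 windows. TATAAA was likewise found in the windows of VCAM1 and ICAM1 and in no window of the other 5 genes, against 10.7% of all windows. In ICAM1 it began 30 bases before the start. In VCAM1 a match on the minus strand began 31 and one on the plus strand 29 bases before the start, overlapping each other, and a further one on the minus strand began 205 bases before it. GGGCGG was found in every one of these genes except VCAM1, with 5 matches in MCAM, 2 of them overlapping, and in 42.6% of all windows. TTCNNNGAA, the core of STAT sites, occurred once in ICAM1, from 75 to 67 bases before the start, and in 6.57% of all windows. TGANTCA, the AP-1 pattern, and GGAATG, the TEAD pattern, were found in none of the windows of the 7 genes, against 6.57% and 11.9% of all windows. The GC content of the printed windows was 46% in VCAM1, 68.8% in ALCAM and 79.6% in MCAM. These matches describe letters only.

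Genes known to act on ICAM1 and VCAM1 were taken as a list of 16. It held NF-kappaB, STAT, interferon and cytokine receptor genes, and the transcription factor genes GATA2, GATA6 and SP1. Of these 10 were higher, 5 lower and NFKB1 did not pass, with a median log2FC of 0.34 against −0.01 over all genes tested. GATA2, GATA6 and SP1 were among the 5 lower. The share called was 93.8%, against 72.6% of all genes tested, 36.1% higher and 36.5% lower. RELB, a subunit of the alternative NF-kappaB pathway, rose to 22.5 ± 2.24 CPM in siBRG1, against 7.58 ± 0.616 CPM in control (log2FC 1.57 with SE 0.101, adjusted p = 4.50e-14). IRF1, an interferon-induced transcription factor, rose by a log2FC of 0.81 (with SE 0.0694, adjusted p = 2.51e-11). TNFAIP3, which encodes the NF-kappaB inhibitor A20, fell to 17.7 ± 1.59 CPM in siBRG1, against 36.2 ± 1.10 CPM in control (log2FC −1.03 with SE 0.0761, adjusted p = 8.79e-13). In the same list RELA was lower (log2FC −0.16 with SE 0.0457, adjusted p = 0.00308). NFKBIA was higher (log2FC 0.35 with SE 0.0711, adjusted p = 7.32e-05).

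The 3 nectins did not move alike. NECTIN2 (ENSG00000130202.9, chromosome 19, 44846175 to 44889228, plus strand) was the most abundant nectin, at 125, 121 and 119 CPM in the siBRG1 libraries, against 86.9, 89.8 and 91.8 CPM in the control libraries. The groups lay apart, with means of 122 ± 2.94 CPM in siBRG1 and 89.5 ± 2.48 CPM in control (SD, n = 3 each). The rise was 1.36-fold (log2FC 0.44 with SE 0.0444, adjusted p = 5.73e-10). With GC content and length trends of each library removed, the log2FC was 0.20 (adjusted p = 0.000115).

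NECTIN1 (ENSG00000110400.10, chromosome 11, 119623408 to 119729084, minus strand), which also serves as an entry receptor of herpes simplex virus, had 21.5, 22.3 and 19.0 CPM in the siBRG1 libraries, against 21.3, 20.1 and 21.9 CPM in the control libraries. The ranges overlapped and the gene did not pass (log2FC −0.01, 95% interval −0.18 to 0.15, adjusted p = 0.890). NECTIN3 (ENSG00000177707.10, chromosome 3, 111070071 to 111275563, plus strand), the strongest trans partner of NECTIN1 and NECTIN2, had 32.0, 30.4 and 34.8 CPM in the siBRG1 libraries, against 31.2, 31.2 and 29.3 CPM in the control libraries. Its ranges overlapped as well (log2FC 0.08, 95% interval −0.06 to 0.22, adjusted p = 0.285). Once GC and length trends were removed it passed, at a log2FC of 0.17 (adjusted p = 0.0203). Both intervals lie within a 2-fold change in either direction. The level per kilobase of NECTIN2 was 6.22 ± 0.506 times that of NECTIN3 in siBRG1 and 4.83 ± 0.298 times in control (SD, n = 3 each), without overlap between groups.

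Outside the 3 nectins, NECTIN4 was barely detected, at 0.0747 ± 0.0729 CPM in siBRG1 and 0.0681 ± 0.0397 CPM in control, and was not tested. The level that 3 counts give is 0.219 to 0.235 CPM in an siBRG1 library and 0.0618 to 0.0765 CPM in a control library. PVR, the nectin-like poliovirus receptor, lies 183 kb from NECTIN2 on chromosome 19 and went the other way. PVR stood at 73.7, 78.0 and 72.3 CPM in the siBRG1 libraries, against 146, 147 and 151 CPM in the control libraries (log2FC −0.98 with SE 0.0455, adjusted p = 2.27e-17). The level per kilobase of NECTIN2 was 1.53 ± 0.0663 times that of PVR in siBRG1 and 0.569 ± 0.00841 times in control, so the order of the pair was reversed. AFDN, the scaffold bound by nectin tails, stood at 146 ± 2.40 CPM in siBRG1 and 144 ± 4.95 CPM in control and did not pass (log2FC 0.02 with SE 0.0417, adjusted p = 0.712), but did once GC and length trends were removed (log2FC 0.19, adjusted p = 9.17e-05). Of 13 cytoplasmic partners of nectins and CADM1 tested, 76.9% were called in either direction, near the 72.6% of all genes tested. By direction, 36.1% of all genes tested were higher and 36.5% lower. Among the 13 partners, 3 were higher, 7 lower and AFDN, PICK1 and SSX2IP did not pass (median log2FC −0.17). With unstranded counts 4 were lower, and once GC and length trends were removed 5 were higher. MPP3, a scaffold that binds CADM1, fell with a log2FC of −1.33 (with SE 0.107, adjusted p = 6.23e-12), and LMO7, which joins the afadin and E-cadherin systems, with one of −0.72 (with SE 0.0494, adjusted p = 1.58e-13). The lymphocyte receptors of these molecules were not tested, and TIGIT, CD96 and CRTAM had 0 counts in every library.

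CADM1 (ENSG00000182985.17, chromosome 11, 115169218 to 115504957, minus strand), a nectin-like molecule of epithelial contacts first described as a tumour suppressor in lung cancer, fell. It stood at 29.2, 25.2 and 24.8 CPM in the siBRG1 libraries, against 37.0, 39.4 and 37.4 CPM in the control libraries. The groups did not overlap, with means of 26.4 ± 2.44 CPM in siBRG1 and 37.9 ± 1.27 CPM in control (SD, n = 3 each). CADM1 was 1.43-fold lower (log2FC −0.52 with SE 0.0705, adjusted p = 1.88e-07), or −0.30 on the log2 scale once GC and length trends were removed (adjusted p = 0.000334). Its relative CADM3 rose at a low level, with 4.09 ± 0.698 CPM in siBRG1 and 1.39 ± 0.465 CPM in control (log2FC 1.57 with SE 0.241, adjusted p = 1.46e-06). Of the nectin and nectin-like relatives, 3 were tested and all were called, PVR lower and CADM3 and CADM4 higher. Of all genes tested 72.6% were called, 36.1% higher and 36.5% lower. CADM4 had 23.6 ± 4.65 CPM in siBRG1 and 18.8 ± 1.10 CPM in control, and its groups overlapped (log2FC 0.33 with SE 0.0984, adjusted p = 0.00421). Without siBRG1 replicate 2, or once GC and length trends were removed, CADM4 was no longer called and CADM3 alone was higher.

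Both neural adhesion genes rose by similar amounts. NCAM1 (ENSG00000149294.16, chromosome 11, 112961247 to 113278436, plus strand), which binds itself between cells and is a defining marker of natural killer cells, had 125, 129 and 130 CPM in the siBRG1 libraries, against 73.6, 78.1 and 72.9 CPM in the control libraries. The change was 1.71-fold (log2FC 0.77 with SE 0.0455, adjusted p = 6.04e-15), with no overlap. L1CAM (ENSG00000198910.13, chromosome X, 153861514 to 153886174, minus strand), which binds itself and integrins, had 135, 149 and 123 CPM in the siBRG1 libraries, against 80.4, 84.4 and 84.7 CPM in the control libraries. Its siBRG1 libraries were spread more widely than its control libraries but all lay above them, with means of 136 ± 13.04 CPM in siBRG1 and 83.2 ± 2.43 CPM in control (SD, n = 3 each). L1CAM rose 1.63-fold (log2FC 0.70 with SE 0.0525, adjusted p = 1.08e-12). The level per kilobase of NCAM1 was 0.541 ± 0.0563 times that of L1CAM in siBRG1 and 0.514 ± 0.0197 times in control, and these ranges overlapped.

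The neural and glial markers listed for the cell type check were low. SOX10 had 0 counts in all libraries, and the 8 markers summed to 2.82 to 4.31 CPM in siBRG1 and 3.01 to 3.38 CPM in control. Of 15 relatives of L1CAM and NCAM1 only 7 were tested, 3 higher, 3 lower and NPTN not passing (median log2FC 0.09). The share called was 85.7%, against 72.6% of all genes tested. NCAM2, the paralog of NCAM1, rose to 16.6 ± 2.84 CPM in siBRG1, against 9.02 ± 0.496 CPM in control (log2FC 0.88 with SE 0.111, adjusted p = 5.33e-08). NFASC, an L1 family member of nodes of Ranvier, fell with a log2FC of −0.91 (with SE 0.0870, adjusted p = 2.38e-10). NEGR1, a GPI-anchored neural adhesion molecule, fell with a log2FC of −0.80 (with SE 0.106, adjusted p = 1.01e-07), or −0.40 once GC and length trends were removed. CNTN1, a contactin gene, was called lower on 3 counts in siBRG1 and 111 in control, summed over libraries, too few to size the change. CHL1, the closest relative of L1CAM, had 0 counts in every library. FUT8, which adds core fucose to NCAM1 among many other glycoproteins, passed at a log2FC of 0.15 (with SE 0.0570, adjusted p = 0.0207), a call lost with DESeq2 (adjusted p = 0.0662), with no count filter, with protein-coding genes alone, with thinned control libraries and without siBRG1 replicate 3, control replicate 2 or control replicate 3 (adjusted p = 0.0829 to 0.185 for the leave-outs).

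ALCAM and MCAM fell. ALCAM (ENSG00000170017.12, chromosome 3, 105366909 to 105576900, plus strand), which binds itself and the lymphocyte receptor CD6, was the most abundant of the 10 in control. It stood at 197, 193 and 193 CPM in the siBRG1 libraries, against 267, 275 and 274 CPM in the control libraries. Replicates differed little and the groups lay well apart, with means of 195 ± 2.44 CPM in siBRG1 and 272 ± 4.17 CPM in control (SD, n = 3 each). The fall was 1.40-fold (log2FC −0.48 with SE 0.0374, adjusted p = 2.73e-12). MCAM (ENSG00000076706.16, chromosome 11, 119308529 to 119321521, minus strand), also named CD146, a marker of endothelium, pericytes and melanoma, had 40.9, 38.5 and 39.6 CPM in the siBRG1 libraries, against 66.0, 70.3 and 71.5 CPM in the control libraries. It had the largest fall of the 10, 1.74-fold (log2FC −0.80 with SE 0.0569, adjusted p = 3.66e-13), again without overlap.

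**Figure D2:**
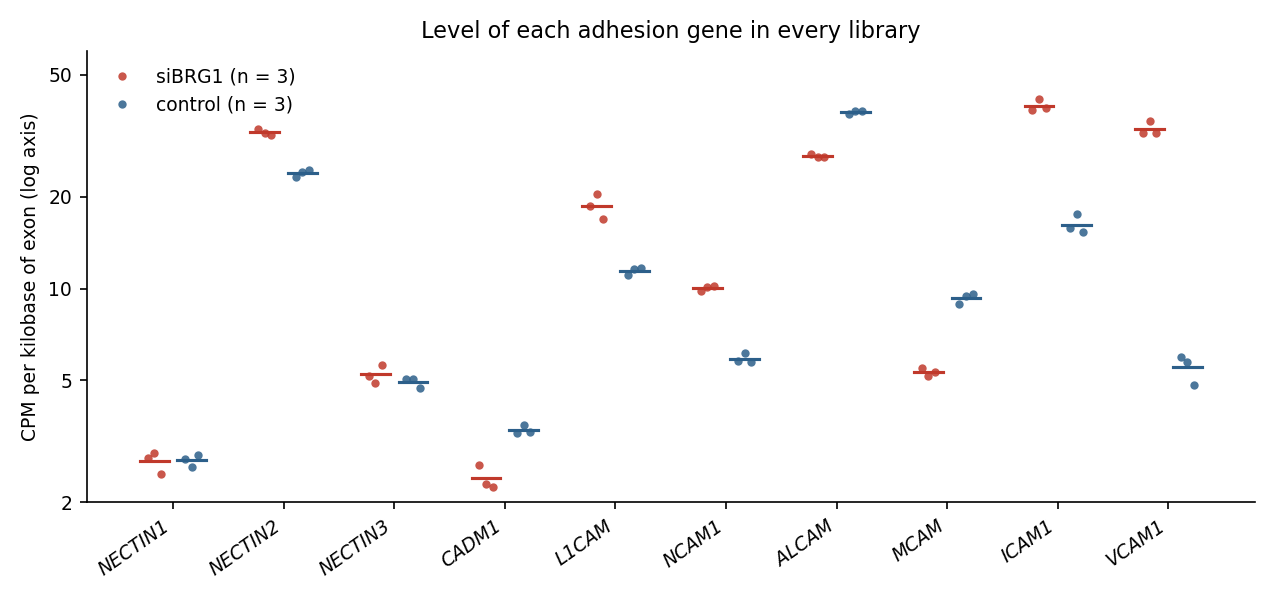
CPM per kilobase of exon (y axis, log scale) of each gene (x axis) in every library, siBRG1 in red and control in blue; points are libraries and lines are means. VCAM1, ICAM1, NCAM1, L1CAM and NECTIN2 lie higher in siBRG1, and CADM1, ALCAM and MCAM lower.

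Levels were compared between genes as CPM per kilobase of exon. In siBRG1 the order was ICAM1 (39.6 ± 1.72), VCAM1 (33.2 ± 1.79), NECTIN2 (32.5 ± 0.785), ALCAM (27.1 ± 0.339), L1CAM (18.6 ± 1.79), NCAM1 (10.0 ± 0.210), MCAM (5.34 ± 0.160), NECTIN3 (5.24 ± 0.361), NECTIN1 (2.72 ± 0.227) and CADM1 (2.40 ± 0.221), each as CPM per kilobase (SD, n = 3). The ranges of VCAM1 and NECTIN2, of MCAM and NECTIN3, and of NECTIN1 and CADM1 overlapped. In control the order was ALCAM (37.9 ± 0.581), NECTIN2 (23.9 ± 0.661), ICAM1 (16.2 ± 1.19), L1CAM (11.4 ± 0.334), MCAM (9.33 ± 0.392), NCAM1 (5.88 ± 0.221), VCAM1 (5.52 ± 0.596), NECTIN3 (4.95 ± 0.178), CADM1 (3.44 ± 0.115) and NECTIN1 (2.74 ± 0.119), each as CPM per kilobase (SD, n = 3). VCAM1 overlapped with both of its neighbours there. With the length of the longest transcript in place of all exons, the order in siBRG1 began with VCAM1, NECTIN2 and ICAM1, and MCAM came below NECTIN3, while the order of the 10 in control was kept.

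The summed level of the 10 genes was 176, 182 and 173 CPM per kilobase in the siBRG1 libraries, against 119, 124 and 121 CPM per kilobase in the control libraries. Most of that difference lay in 2 genes. ICAM1 and VCAM1 together made up 41.2 ± 1.07% of the sum in siBRG1 and 17.9 ± 1.10% in control, and ALCAM alone 15.3 ± 0.492% in siBRG1 and 31.2 ± 0.364% in control (SD, n = 3 each). Without ICAM1 and VCAM1 the other 8 summed to 104 ± 2.18 CPM per kilobase in siBRG1 and 99.5 ± 1.95 CPM per kilobase in control. The level per kilobase of VCAM1 was 1.23 ± 0.0763 times that of ALCAM in siBRG1 and 0.146 ± 0.0172 times in control.

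**Figure D3:**
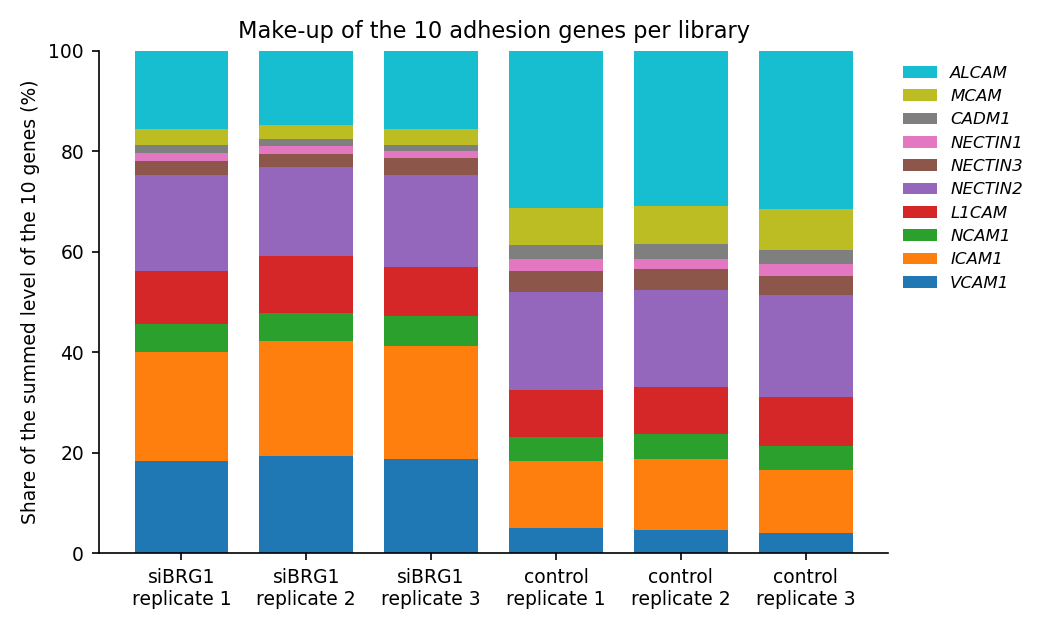
Share of each gene in the summed CPM per kilobase of the 10 (y axis, percent) in each library (x axis), stacked. ICAM1 and VCAM1, at the bottom, take 41.2% on average in siBRG1 and 17.9% in control, and ALCAM, at the top, takes 15.3% in siBRG1 and 31.2% in control.

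A list of 28 ICAM, JAM and other adhesion genes, most of them with immunoglobulin domains, held 19 that were tested. Of these 13 were higher, 5 lower and EMB did not pass, with a median log2FC of 0.51 against −0.01 over all genes tested. The share called was 94.7%, against 72.6% of all genes tested, 36.1% higher and 36.5% lower. BCAM, a receptor of laminin alpha5, rose to 84.6 ± 6.21 CPM in siBRG1, against 31.8 ± 1.89 CPM in control (log2FC 1.42 with SE 0.0604, adjusted p = 3.58e-18). CD99L2, a relative of CD99 that lacks immunoglobulin domains, rose by a log2FC of 1.57 (with SE 0.0710, adjusted p = 1.33e-17), and IGSF3 by 1.23 (with SE 0.0615, adjusted p = 1.48e-16). JAM2 and CEACAM1 had larger fitted values, 2.69 and 2.75, but summed counts of 54 and 30 in siBRG1 and of 27 and 14 in control. The ICAM1 relatives ICAM4, ICAM5 and ICAM3 lie 352 bases, 3366 bases and 47.2 kb from ICAM1 on chromosome 19. ICAM5 and ICAM3 rose by log2FC values of 0.58 (with SE 0.0930, adjusted p = 2.77e-06) and 0.45 (with SE 0.123, adjusted p = 0.00175), and ICAM4 was not tested. Of other tested genes nearer than ICAM3, AC011511.5 (−1.37 log2FC), MRPL4 (−0.14), RAVER1 (−0.31) and DNMT1 (−0.16) fell, and ZGLP1, S1PR2 and AC114271.1 did not pass.

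Of the ligands, linkers and sheddases of the 10, 77.8%, 83.3% and 87.5% of those tested were called, against 72.6% of all genes tested, so these shares lie near the background. Of 14 integrins and other ligands, 9 were tested, 6 were higher, NRP1 was lower, and ITGA4 and ITGAX did not pass (median log2FC 0.25). LGALS3, which encodes galectin-3, rose by a log2FC of 1.19 (with SE 0.0670, adjusted p = 1.88e-15), ITGB3, whose integrin binds L1CAM, by 0.40 (with SE 0.0938, adjusted p = 0.000425), and NRP1, a coreceptor of L1CAM, fell with a log2FC of −0.90 (with SE 0.0517, adjusted p = 6.23e-15). The leukocyte integrin genes that pair with ICAM1, ITGAL, ITGAM and ITGB2, were not tested, with summed counts of 1, 2 and 1 in siBRG1 and of 1, 11 and 5 in control. Of 12 cytoskeletal linkers 7 were lower, 3 higher, and ANK3 and SPTAN1 did not pass (median log2FC −0.38). EZR, which encodes ezrin, the linker of ICAM1 and VCAM1 to actin, fell to 670 ± 7.82 CPM in siBRG1, against 1336 ± 23.5 CPM in control (1.99-fold lower, SE 0.0364 on the log2 scale, adjusted p = 9.28e-20). ACTN1, an actinin, fell with a log2FC of −0.83 (with SE 0.0407, adjusted p = 8.45e-17), and ANK1, an ankyrin of low level here, rose by 2.04 (with SE 0.179, adjusted p = 3.60e-11), at 7.02 ± 0.445 CPM in siBRG1 and 1.70 ± 0.240 CPM in control. Of 8 sheddases tested 6 were higher, ADAM10 was lower and ADAM8 did not pass (median log2FC 0.34). MMP14, a membrane matrix metalloproteinase, rose to 198 ± 1.14 CPM in siBRG1, against 84.3 ± 2.86 CPM in control (log2FC 1.24 with SE 0.0418, adjusted p = 1.45e-20). BACE1 and ADAM15 rose by log2FC values of 0.57 (with SE 0.0609, adjusted p = 1.81e-09) and 0.44 (with SE 0.0607, adjusted p = 2.16e-07), the last at 0.21 once GC and length trends were removed. The fall of ADAM10 (log2FC −0.11 with SE 0.0389, adjusted p = 0.0107) was no longer called with unstranded counts, once GC and length trends were removed or without siBRG1 replicate 2.

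**Figure D4:**
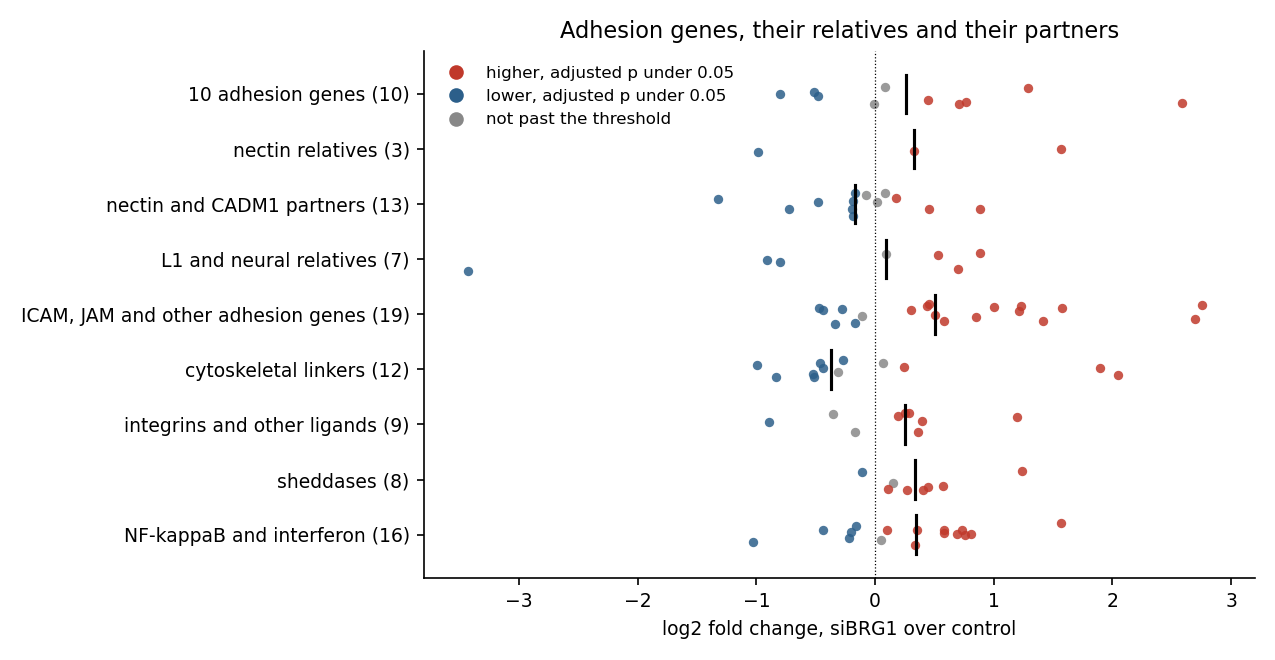
Log2FC, siBRG1 over control (x axis), of the genes tested in each list (y axis, number tested in brackets); points are genes and black bars are medians. Medians lie above 0 for the ICAM, JAM and other adhesion genes (0.51) and below 0 for the cytoskeletal linkers (−0.38).

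Reads on the strand opposite to the gene made up 0.392 to 1.65% of the stranded counts of a gene over the siBRG1 libraries and 0.411 to 1.52% over the control libraries, across the 10 genes. Over all genes the share was 6.03 ± 0.0826% in siBRG1 and 6.16 ± 0.0202% in control. ALCAM and VCAM1 overlap no other annotated gene. MCAM overlaps CBL on the opposite strand, and genes on their own strand overlap L1CAM (U52112.1), MCAM (MIR6756) and NCAM1 (RNU7-187P).

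Values for 9 of the 10 genes, all but MCAM, were taken from the authors' deposited table. The log2FC values in the authors' deposited table were 2.56 for VCAM1, 1.27 for ICAM1, 0.74 for NCAM1, 0.68 for L1CAM, 0.42 for NECTIN2, 0.06 for NECTIN3, −0.04 for NECTIN1, −0.51 for ALCAM and −0.54 for CADM1. In the authors' deposited table the adjusted p was 0.697 for NECTIN1 and 0.491 for NECTIN3, and under 0.05 for the other 7. For these 9 genes the authors' deposited table differed from the values above by −0.03 to −0.02 on the log2 scale.

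By the rule for likeness, the genes whose log2 CPM over the 6 libraries lay closest to that of VCAM1, each centred on its own mean, were COL3A1 (distance 0.165), GSN (0.167) and AMN1 (0.168), out of 11405 protein-coding genes. COL3A1, a fibrillar collagen gene, had 1616 ± 98.3 CPM in siBRG1 and 294 ± 33.7 CPM in control. GSN, which encodes the actin-severing protein gelsolin, had 177 ± 6.91 CPM in siBRG1 and 27.2 ± 2.09 CPM in control, and AMN1 had 35.4 ± 0.727 CPM in siBRG1 and 5.90 ± 0.656 CPM in control. With 2 groups of libraries this likeness mostly says that the changes are of about the same size.

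**Figure D5:**
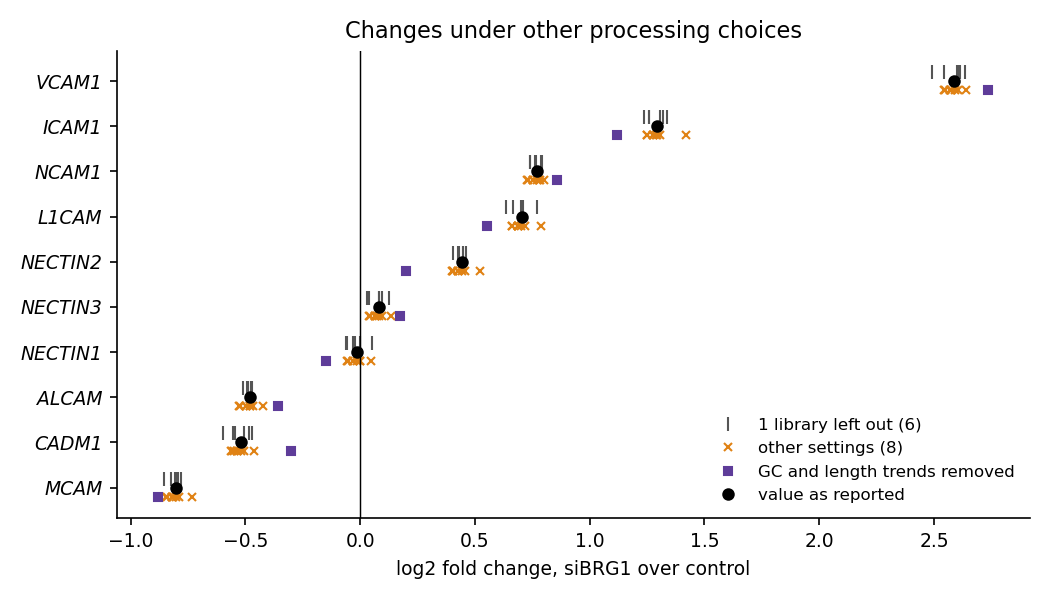
Log2FC, siBRG1 over control (x axis), of each gene (y axis) as reported and under 15 other processing choices. Once GC and length trends were removed, NECTIN2 (0.20) and CADM1 (−0.30) had the smallest changes of all their settings. VCAM1 stays between 2.49 and 2.74.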

How the data were processed

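RNA of 6 libraries of 12Z cells was counted per gene. The authors deposited raw counts per gene for each library, in the layout STAR writes (unstranded and 2 stranded columns), and a table of their own comparison with a mean normalised signal, a log2 fold change (log2FC), a Wald score and p-values, per the file headers. STAR, DESeq2, Trim Galore, cutadapt and FastQC, with no versions, and build GRCh38.p12 are listed in the submitters' processing notes, and no source used here states the annotation release. Among 58336 gene IDs 58216 matched GENCODE 29, 56888 of them with their version, which gave symbols, GRCh38 coordinates and exon lengths.

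The stranded column with the larger total was used. Rows without a gene entered neither totals nor tests. They were unmapped, multiply mapped, without feature or ambiguous reads, at 1.84, 20.3, 3.97 and 3.11% of reads in siBRG1 and 1.64, 9.81, 13.3 and 4.16% in control. Counts were fitted with edgeR 4.0.16 in R 4.3.3 (TMM, filterByExpr, robust quasi-likelihood, group only, two-sided, Benjamini-Hochberg over 15830 genes tested, call at 0.05), after a test on simulated data. The SE is the absolute log2FC over the square root of F. Levels between genes are CPM per kilobase of all annotated exons, used in place of a TPM-like value so that both groups keep the TMM scale. Alternatives were DESeq2 1.42.0 and its size factors, other count filters, unstranded counts, protein-coding genes alone, control counts thinned to siBRG1 depth, GC and length trends removed, a replicate block, and each library left out. Between replicates chi-square over its degrees of freedom was 2.71 to 4.80, above sampling noise, so they were kept apart. Promoter sequences are from RefSeq (GRCh38.p14).

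The 10 genes, the lists and the alternatives were chosen with earlier results of these data known. Named genes are the 10, SMARCA4, PVR, NECTIN4, AFDN and, of each list, at most 3, those of largest change that passed the test, averaged 50 or more counts and had groups apart; ICAM3, ICAM5, ADAM10, members that did not pass and others outside this rule were named after their values were seen. A gene that the rule names is not reported here.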

Additional observations from a re-analysis of the deposited data

How the results depend on the processing

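Under all 15 alternatives 8 of the 10 genes were called, 5 higher and 3 lower, except that 9 were called, 6 higher, once GC and length trends were removed, where NECTIN3 passed (log2FC 0.17); 2 were called at least 2-fold in every setting. For the 8 called genes no alternative changed the direction or ended the call. Leaving out 1 library gave log2FC values of 2.49 to 2.64 for VCAM1, 1.24 to 1.34 for ICAM1, −0.85 to −0.78 for MCAM and −0.06 to 0.05 for NECTIN1, and 8 calls each time. Over all 15 alternatives the ranges were wider, 1.12 to 1.42 for ICAM1 and −0.15 to 0.05 for NECTIN1. L1CAM ranged from 0.55 to 0.79 and NCAM1 from 0.73 to 0.86. Leaving out 1 library gave 10291 to 11692 genes called, 5131 to 5680 higher and 5160 to 6012 lower, and 2813 to 3968 at least 2-fold, against 11498, 5716, 5782 and 3412 with all libraries. The count at least 2-fold was 2050 when 50 or more counts in 3 libraries were required and 2064 with protein-coding genes alone. Thinning the control libraries to 12749205 counts gave VCAM1 2.58 and ICAM1 1.29.

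Of the list counts, nectin relatives higher came to 1, against 2, once GC and length trends were removed, and to 1 to 2 when 1 library was left out. Partners of nectins and CADM1 came to 4 lower, against 7, with unstranded counts and to 5 higher, against 3, once GC and length trends were removed. Sheddases lower came to 0, against 1, with unstranded counts and once GC and length trends were removed, and to 0 to 1 when 1 library was left out. FUT8 was no longer called higher, a count of 0 against 1, with DESeq2, no count filter, protein-coding genes alone and thinned control libraries, and the count was 0 to 1 when 1 library was left out. The cause was not tested.

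Same-numbered libraries of the 2 groups did not deviate together (r = −0.0126, 0.0220 and 0.00898 across genes). With deviations taken from the mean of only 3 libraries per group, this cannot settle whether the numbers pair the libraries. With the replicate block 11194 genes were called and the 10 genes gave 8 calls, 2 of them at least 2-fold, with VCAM1 at 2.59 and ICAM1 at 1.29 on the log2 scale; the block changed no call of the 10. Depth limits NECTIN4 and the leukocyte integrin genes ITGAL, ITGAM and ITGB2, whose few counts allow no comparison.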

Other observations

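Of 4 tested genes within 250 kb of VCAM1, 2 were higher and 2 lower, with a median log2FC of −0.41, while VCAM1 itself rose by 2.59. Of 19 tested genes within 250 kb of ICAM1, 7 were higher and 8 lower, with a median of −0.12. The window around NECTIN2 held 16 tested genes, 7 higher and 7 lower, and that around MCAM 15, with 6 higher and 5 lower. These counts are descriptions, and 72.6% of all genes tested were called.

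Of the 10 genes, NCAM1, CADM1, MCAM and NECTIN1 lie on chromosome 11. NCAM1 and CADM1 are 1891 kb apart and MCAM and NECTIN1 302 kb apart. NCAM1 rose, CADM1 and MCAM fell and NECTIN1 did not pass, so these genes did not all move alike. The gaps between them are wider than the 250 kb window used for neighbours.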
